A study of Mus musculus with 18 samples.

Results

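Natural killer (NK) cells that carry both CD27 and CD11b were compared with the midpoint of the cells before and after them in maturation, to find genes that peak or dip at this stage. The cells were splenic NKp46+ cells of ICR mice aged 6 weeks, male or female per the labels, all injected 2 times at an interval of 2 days with complexes of IL-15 and its receptor alpha chain (IL15/Ra). They were enriched by negative selection and sorted by 2 surface proteins into an immature subset with CD27 alone (CD27+CD11b-, named CD27 below), a mature subset with both (CD27+CD11b+, DP for double-positive) and a mature subset with CD11b alone (CD27-CD11b+, named CD11b below), from mice of genotype Runx3 +/+ (WT) or Runx3 -/- (KO). Each of the 6 groups had 3 arrays, so 6 DP arrays were set against 12 neighbour arrays, out of 18 arrays in all. No uninjected mice were analysed here, and the labels do not state whether the mice were pooled or whether arrays of the same number came from the same mice.

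Mouse NK cells mature in the spleen and bone marrow from a CD27-bearing stage through a double-positive stage to a stage that keeps CD11b alone. Along this path they are known to lose chemokine receptors such as CXCR3 and proliferative capacity, and to gain integrins, Ly49 receptors and S1P-driven egress. Runx3 is a Runt family transcription factor of NK cells and cytotoxic T cells, and IL-15 is the cytokine on which NK cells depend for survival and expansion. A difference from the midpoint of the neighbours marks genes that do not change steadily, whether they have their extreme in the middle stage or change mainly at one side of it.

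For each of the 35399 probe sets and each genotype, the mean log2 value of the CD27 and CD11b group means was subtracted from the DP mean, and the WT and KO differences were averaged. A value of 0 means that DP lay exactly halfway between its neighbours on the log2 scale. The rule for the contrast uses only the subset and genotype labels. The test was limma's moderated test with Benjamini-Hochberg adjustment over all 35399 probe sets, and a call is an adjusted p under 0.05. A called probe set is a peak or a dip where the DP mean lay above or below both neighbours' means in WT and also in KO. Any other call is a step here, since its 2 maturation changes, from CD27 to DP and from DP to CD11b, were unequal in size with DP between its neighbours in at least 1 genotype.

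The arrays were alike in pairwise comparison, with Pearson's r of 0.96 to 0.995, and the median SD within groups was 0.141 log2. The median standard error of the averaged difference was 0.0692. The sorting genes followed the gates: Itgam, which encodes CD11b, and Cd27 are given with their values below, and Ncr1, which encodes NKp46, lay 0.02 from the midpoint (adjusted p = 0.999). Arrays with Xist, a transcript of female cells, above 9 log2 were equally many in the 3 subsets of a genotype, at 2 of 3 in WT and 1 of 3 in KO. The 3 arrays of KO replicate 3 stood apart from the rest. Their neutrophil marker list averaged 9.09 in CD11b cells, while the other 17 arrays lay between 5.04 and 5.51. Their mitosis list averaged 9.71 to 10.14, against 6.85 to 7.83 in the other KO arrays and 6.32 to 6.60 in the WT arrays. Results are therefore given also without these 3 arrays where that moves them.

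DP cells lay close to the midpoint for most probe sets, which also holds for any probe set that does not change between the subsets. Of all probe sets, 76.8% lay within 0.1 log2 of the midpoint and 93% within 0.2, and the median difference was 0.005. The WT and KO differences had the same sign for 54.2% of probe sets. In the main fit, which does not use replicate number as a block, 20 probe sets were called (0.0565% of those tested). DP lay above the midpoint in 9 (0.0254%) and below it in 11 (0.0311%), and 11 of the 20 differed at least 1.5-fold. Fits with replicate number as a block called more, as given in the closing section. Of the 20, 4 were peaks (0.0113%), 6 were dips (0.0169%) and 10 were steps (0.0282%). For scale, DP differed from CD27 in 376 probe sets (1.06%) and from CD11b in 625 (1.77%), and CD11b differed from CD27 in 2947 (8.33%; 1743 higher, 4.92%, and 1204 lower, 3.4%). Of the 20 calls 18 were also among these 2947.

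These counts depended on single arrays. Leaving out 1 DP array gave 12 calls when it was DP WT replicate 1, DP WT replicate 2 or DP KO replicate 2 and 10 when it was DP KO replicate 1. Leaving out a neighbour array gave 34 without CD27 WT replicate 3, 31 without CD11b KO replicate 3 and 50 without CD11b KO replicate 2. Peaks and dips together numbered 10 (0.0282%), and they ranged from 4, with DP WT replicate 1 or DP KO replicate 1 left out, to 25, with CD11b KO replicate 2 left out. They numbered 5 after dropping DP WT replicate 2 or DP KO replicate 2, 6 after DP WT replicate 3 and 17 after CD11b KO replicate 3. Without the 3 arrays of KO replicate 3, 36 probe sets were called, 17 of the 20 among them, with 10 peaks, 6 dips and 20 steps, and 7 of the 10 peaks and dips remained such. The 19 gained, listed after their values were seen, included the peaks Gas7 (0.53, adjusted p = 0.00171), Slc25a33 (0.48, 0.0163), Itgax (0.74, 0.0237), Gpat3 (0.52, 0.0498), Shc1 (0.26, 0.0498), Ly6g (0.90, 0.0498) and Sh2d1b1 (0.34, 0.0498), and the dips Tnip1 (-0.29, 0.0348) and Rgs18 (-0.68, 0.0393), each with its adjusted p.

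**Figure D1:**
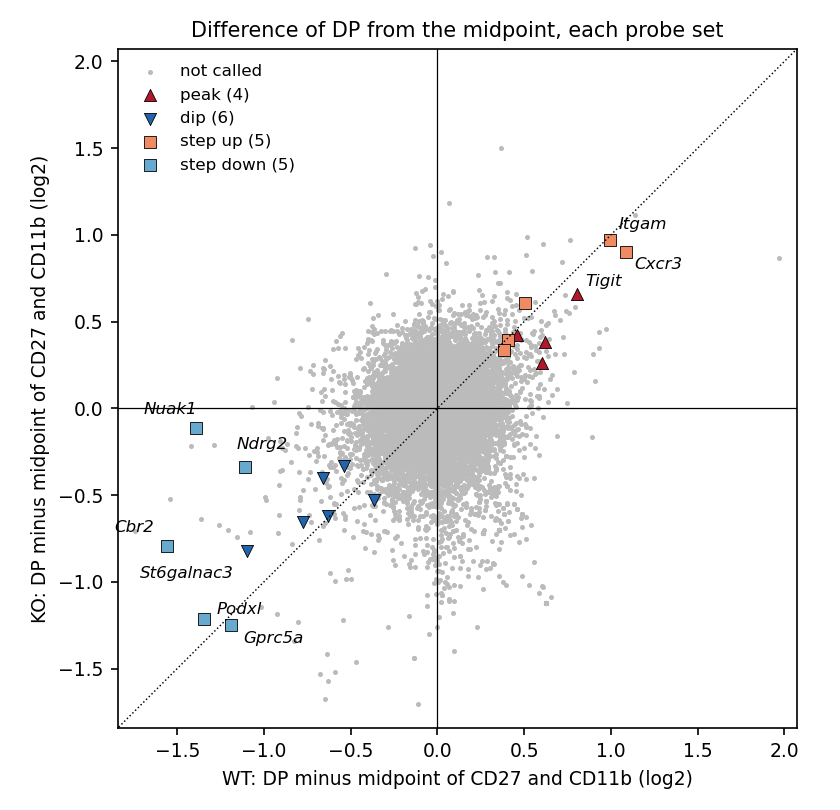
Each point is a probe set, with its DP minus midpoint difference in WT on the horizontal axis and in KO on the vertical axis (log2). Most probe sets lie near 0 in both genotypes, the 20 calls (coloured) lie on the same side of 0 in WT and KO, and Nuak1 lies at -1.39 in WT and -0.11 in KO.

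A call against the midpoint does not show that DP differed from both neighbours. DP was then required to differ from CD27 and from CD11b in the same direction, with the larger of the 2 p-values counted. Limma's test in the main fit made 0 calls after Benjamini-Hochberg adjustment, and the result with a replicate block is given in the closing section. In the main fit 298 probe sets (0.842%) had an unadjusted p under 0.05, of which 177 had DP higher (0.5%) and 121 lower (0.342%). DP means lay above both neighbours in both genotypes for 3915 probe sets (11.1%) and below for 2583 (7.3%), counts that carry no test. The arrays themselves did not overlap in 12 probe sets with DP above (0.0339%) and 7 with DP below (0.0198%), and Tigit and Prss16 were the 2 called genes among these 19. Several of the 7 share identical rounded values on every array, so they are not separate measurements. Some of the 12 differed little from the midpoint, such as Bmp4 at 0.09. The peaks and dips below are therefore genes whose DP mean left the midpoint and lay past both neighbours. The margin over the nearer neighbour is given for each as an average over genotypes. Within 1 genotype, DP was nearly level with a neighbour for 3 of the dips. DP minus CD11b in WT was -0.04 for St6galnac3 and -0.02 for Tnfaip8, and DP minus CD27 in KO was -0.03 for Snap47.

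Tigit, an inhibitory receptor for nectin-like ligands, had the largest difference from the midpoint of the peaks. The WT arrays read 9.98, 10 and 10.04 log2 for CD27, 10.32, 10.37 and 10.18 for DP, and stood at 9.11, 9.20 and 8.57 for CD11b. The KO arrays read 11.45, 11.22 and 11.29 for CD27, 11.66, 11.54 and 11.56 for DP, and 10.35, 10.84 and 10.42 for CD11b. The DP arrays were the highest in each genotype and overlapped neither neighbour. DP exceeded the midpoint by 0.73 ± 0.09 log2 (SE), or 1.66-fold (95% interval 1.45 to 1.9, limma adjusted p = 0.00479), by 0.80 in WT and 0.66 in KO. The margin over CD11b was 1.19 (adjusted p = 4.33e-05), whereas that over CD27 was 0.27 (adjusted p = 0.327). Tigit kept its call with any single array left out, and its adjusted p was 0.0407 without KO replicate 3.

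Prss16, the thymus-specific serine protease, was the peak whose averaged values passed against each neighbour. Its WT values were 5.57, 5.55 and 5.4 for CD27, 6.17, 6.12 and 6.10 for DP, and 6.01, 5.95 and 5.53 for CD11b. Its KO values were 5.59, 5.81 and 5.81 for CD27, 6.03, 6.05 and 5.86 for DP, and 5.41, 5.23 and 5.47 for CD11b. DP was highest in each genotype without overlap, although all these values lie below 6.33, the median of the probe set means, where signal is low. DP exceeded the midpoint by 0.44 ± 0.07 log2 (1.36-fold, 1.22 to 1.5, adjusted p = 0.0358), CD27 cells by 0.43 (adjusted p = 0.0164) and CD11b cells by 0.45 (adjusted p = 0.00826). The margins over CD27 and CD11b were 0.62 and 0.30 in WT and 0.24 and 0.60 in KO. The test against both neighbours gave an unadjusted p of 9.36e-05 for Prss16 and an adjusted p of 1 over all probe sets. The call was lost in 10 of the 18 fits with 1 array left out, with an adjusted p of up to 0.133 without DP KO replicate 2.

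Tmsb15a encodes a beta-thymosin, a small protein that binds actin monomers. The WT arrays read 7.39, 7.34 and 7.37 for CD27, 8.41, 8.40 and 8.35 for DP, and 8.12, 8.17 and 8.32 for CD11b. The KO arrays read 7.13, 7.09 and 7.38, then 7.61, 7.62 and 7.63, then 7.60, 7.68 and 7.26 in the same order of subsets. DP was highest without overlap in WT, and in KO it overlapped CD11b. The difference from the midpoint was 0.43 ± 0.06 (1.35-fold, 1.23 to 1.48, adjusted p = 0.0143). DP lay 0.72 above CD27 (adjusted p = 0.000159) and 0.14 above CD11b (adjusted p = 0.49). Tmsb15a also passed in WT alone (0.60, adjusted p = 0.0298), and in KO its difference was 0.26. It was no longer a peak but a step without KO replicate 3 (adjusted p = 0.00171), and it lost its call without DP WT replicate 1 (0.0678), DP WT replicate 2 (0.0639), DP KO replicate 1 (0.0573) or DP KO replicate 2 (0.0582). The remaining peak was a probe set with no gene symbol in the annotation, at 0.50 (adjusted p = 0.0215), with DP 0.26 over CD27 (adjusted p = 0.223). It lost its call in 4 of 18 fits, with DP WT replicate 1 (0.0959), DP WT replicate 3 (0.0954), DP KO replicate 1 (0.122) or DP KO replicate 2 (0.102) left out.

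**Figure D2:**
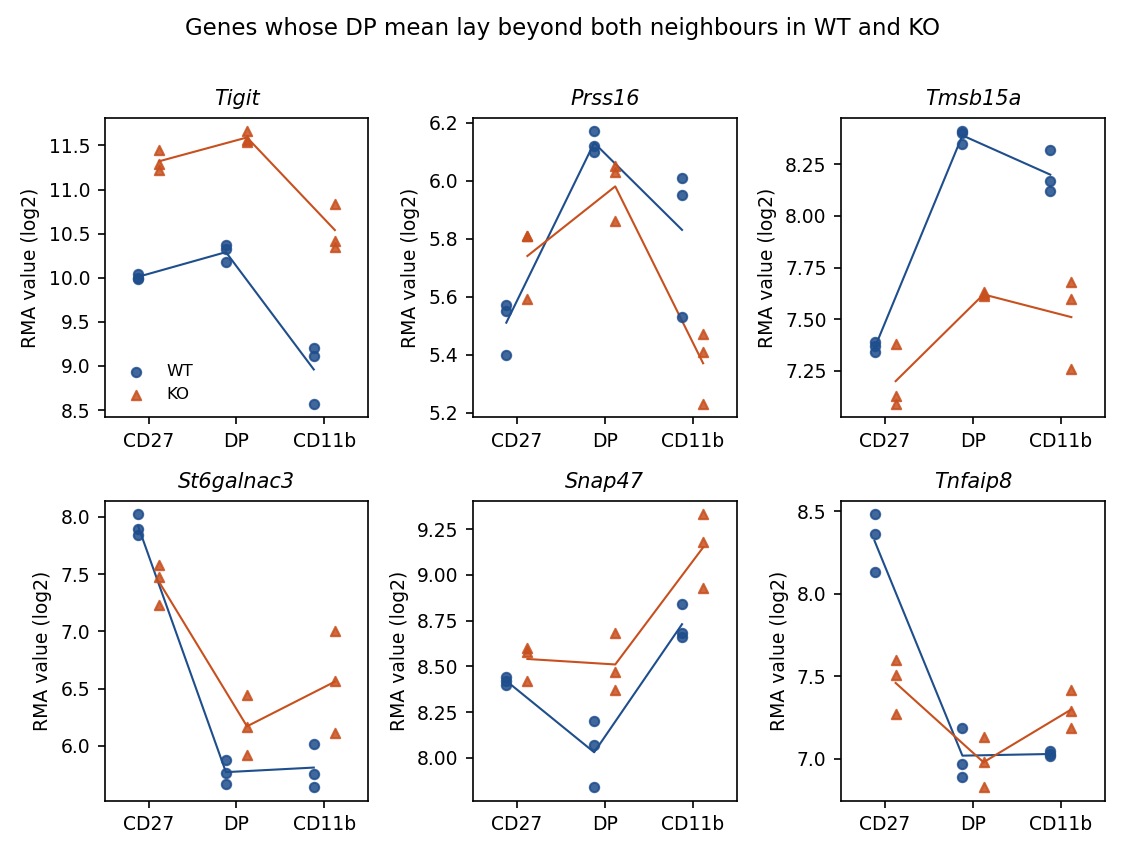
Deposited log2 values of each array (points and triangles) and group means (lines) for 3 peaks (Tigit, Prss16, Tmsb15a) and 3 dips (St6galnac3, Snap47, Tnfaip8), with WT in blue and KO in orange. Tigit and Prss16 have DP arrays above all neighbours in both genotypes, while St6galnac3 and Tnfaip8 fall mainly between CD27 and DP.

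St6galnac3, a sialyltransferase that adds sialic acid to N-acetylgalactosamine on glycolipids and glycoproteins, was the dip with the largest difference. Its WT arrays read 8.02, 7.84 and 7.89 for CD27, 5.67, 5.88 and 5.76 for DP, and 5.64, 5.75 and 6.02 for CD11b. Its KO arrays read 7.58, 7.23 and 7.47 for CD27, 6.44, 6.16 and 5.92 for DP, and 7, 6.11 and 6.57 for CD11b. DP was far below CD27 in each genotype and overlapped CD11b in each. The WT DP and CD11b values lie below 6.33, the median of the probe set means, where signal is low. DP lay 0.96 ± 0.11 log2 under the midpoint (1.94-fold under, 1.64 to 2.3, adjusted p = 0.00365), 1.70 below CD27 (adjusted p = 7.12e-05) and 0.21 below CD11b (adjusted p = 0.662). The gene thus fell at the first maturation change and its further dip below CD11b did not pass. It passed in WT alone (adjusted p = 0.0352) and kept the averaged call with each array left out.

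Tnfaip8, a gene induced by tumour necrosis factor and linked to the control of cell death, had the same shape on 1 of its probe sets. That probe set lay 0.53 ± 0.07 below the midpoint (1.44-fold under, 1.3 to 1.6, adjusted p = 0.00745), 0.89 below CD27 (adjusted p = 0.000112) and 0.17 below CD11b (adjusted p = 0.48). In WT the DP arrays read 6.89, 6.97 and 7.19, against 8.36, 8.48 and 8.13 in CD27 cells and 7.03, 7.05 and 7.02 in CD11b cells. In KO they read 6.83, 6.98 and 7.13, against 7.27, 7.51 and 7.60 in CD27 cells and 7.29, 7.19 and 7.42 in CD11b cells. DP overlapped CD11b in WT and neither neighbour in KO. The gene's brighter probe set, looked up after these values were seen, differed by -0.44 and did not pass (adjusted p = 0.359).

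Snap47, a SNARE family protein of membrane fusion, dipped from the other side. Its DP values were 8.20, 7.84 and 8.07 in WT and 8.47, 8.37 and 8.68 in KO. CD27 cells read 8.42, 8.44 and 8.40 in WT and 8.58, 8.42 and 8.60 in KO, and CD11b cells read 8.84, 8.66 and 8.68 in WT and 9.33, 8.93 and 9.18 in KO. DP was lowest without overlap in WT, and it overlapped CD27 in KO. The difference from the midpoint was -0.44 ± 0.07 (1.35-fold under, 1.22 to 1.5, adjusted p = 0.0358), with DP 0.67 below CD11b (adjusted p = 0.000413) and 0.21 below CD27 (adjusted p = 0.332). The call was lost in 11 of 18 fits with 1 array left out, with an adjusted p of up to 0.133 without DP KO replicate 2, and it was 0.0568 without KO replicate 3. Snap47 was also not called after cyclic loess normalization or with an intensity trend.

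Small nucleolar RNAs made up 2 of the other 3 dips. They are short RNAs that guide the chemical modification of ribosomal and other RNAs. Snora69, a guide of pseudouridylation, read 10.79, 10.75 and 10.72 on the WT CD27 arrays, 9.79, 9.80 and 9.75 on the DP arrays, and 9.92, 10.07 and 10.24 on the CD11b arrays. In KO it read 10.56, 10.27 and 10.60, then 9.48, 9.64 and 9.68, then 9.94, 9.68 and 10.26. DP was lowest without overlap in WT, and in KO 1 DP array equalled the lowest CD11b array at 9.68. The difference was -0.62 ± 0.08 (1.54-fold under, 1.37 to 1.73, adjusted p = 0.00504), nearly equal at -0.63 in WT and -0.62 in KO, with margins of 0.92 under CD27 (adjusted p = 0.000172) and 0.33 under CD11b (adjusted p = 0.102). Snord15b, of the class that guides 2'-O-methylation, lay 0.45 under the midpoint (1.36-fold, 1.23 to 1.51, adjusted p = 0.0364), with DP minus CD27 at -0.57 (adjusted p = 0.00349) and DP minus CD11b at -0.32 (adjusted p = 0.066). That call was lost after cyclic loess normalization, without KO replicate 3 (adjusted p = 0.0915) and in 14 of 18 fits with 1 array left out, up to 0.137 without DP WT replicate 3. The last dip, at -0.71 (adjusted p = 0.0146), is a probe set that the annotation gives to several genes and is not named. Its DP minus CD11b was -0.38 (adjusted p = 0.162), and it lost its call in 3 of 18 fits, without DP WT replicate 2 (0.0676), DP WT replicate 3 (0.0723) or DP KO replicate 1 (0.0573).

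The small nucleolar RNAs were then looked at as a class, chosen after these values were seen. Of 51 such genes measured, 44 lay below the midpoint and 36 below it in both genotypes, whereas 4703 of all 19938 genes lay below in both. The DP mean was under both neighbours in both genotypes for 22 of the 51 and for 1334 of the 19938, and 2 of the 51 were called (3.92%), against 16 of the 19938 (0.0802%). Their dips are the values that led to this class. The median difference was -0.15 (WT -0.13, KO -0.18, and -0.14 without KO replicate 3), against 0.01 over all genes. The mean over the 51 genes was 8.97, 9.04 and 9.12 in WT DP arrays, against 9.16, 9.31 and 9.29 in CD27 and 9.03, 9.01 and 9.18 in CD11b. In KO it was 8.90, 8.91 and 8.75 in DP, against 9.09, 9.06 and 9.19 in CD27 and 9.17, 8.98 and 9.03 in CD11b. DP was lowest without overlap in KO, and it overlapped CD11b in WT. Snora33 had a larger difference than either call, at -0.75, and did not pass (adjusted p = 0.0538). Snord118 lay further below, at -0.79 (adjusted p = 0.774), with -0.13 in WT and -1.44 in KO. Its CD11b KO arrays read 13.3, 10.31 and 10.76. Many of these RNAs lie within introns of host genes, so their probe sets can also read host transcripts, which was not tested.

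The 5 calls in which DP lay below the midpoint without a dip (0.0141%) were genes that stayed low in DP and rose at the last maturation change. Podxl, the sialomucin podocalyxin, read 5.74, 5.85 and 5.43 on the WT CD27 arrays, 6.08, 5.85 and 6.22 on the DP arrays, and 8.98, 9.28 and 9.07 on the CD11b arrays. Its KO values were 5.51, 5.34 and 5.70, then 5.51, 5.79 and 6.09, then 8.56, 8.26 and 8.73. DP met or overlapped CD27 and was far under CD11b in each genotype. The CD27 and DP values lie below 6.33, the median of the probe set means, where signal is low. DP lay 1.28 ± 0.10 log2 under the midpoint (2.43-fold, 2.09 to 2.83, adjusted p = 0.00017), the smallest p of the contrast, and DP minus CD11b was -2.89 (adjusted p = 9.71e-09). Podxl was called in WT alone (-1.34, adjusted p = 0.00256) and in KO alone (-1.22, adjusted p = 0.0252).

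Gprc5a, an orphan G protein-coupled receptor, was the other gene called in each genotype. Its means ran 5, 5.11 and 7.60 in WT and 4.95, 5.17 and 7.89 in KO over CD27, DP and CD11b cells. DP lay 1.22 under the midpoint (2.33-fold, 1.94 to 2.8, adjusted p = 0.00106), by 1.19 in WT (adjusted p = 0.0352) and 1.25 in KO (adjusted p = 0.0372). The CD27 and DP values lie near the low end of the deposited values, which began at 3.911, where the resolution for low transcripts is poor.

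Cbr2, a carbonyl reductase, Nuak1, an AMPK-related kinase, and Ndrg2, a member of the NDRG family, also rose at the last change, with larger differences in WT than in KO. Cbr2 means ran 5.06, 5.32 and 8.70 in WT and 5, 5.28 and 7.15 in KO, a difference from the midpoint of -1.56 and -0.79 (averaged -1.18, adjusted p = 0.00215). Nuak1 means ran 5.17, 5.49 and 8.60 in WT, where DP lay 1.39 under the midpoint (adjusted p = 0.000857), and 5.01, 5.07 and 5.35 in KO, where it lay 0.11 under. Its averaged difference was -0.75 (adjusted p = 0.00365). Ndrg2 means ran 6.28, 6.51 and 8.97 in WT and 6.03, 6.25 and 7.15 in KO, with differences of -1.11 and -0.34 (averaged -0.72, adjusted p = 0.00365). The KO minus WT difference itself did not pass for Nuak1 (1.28, adjusted p = 0.156), Ndrg2 (0.77, adjusted p = 1) or Cbr2 (0.77, adjusted p = 1).

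The 5 steps with DP above the midpoint (0.0141%) fell at the last change or, for Itgam, rose at the first. Cxcr3, a chemokine receptor of immature NK cells and activated T cells, read 11.29, 11.41 and 11.05 in WT DP cells, against 11.76, 12 and 12.08 in CD27 cells and 8.36, 8.60 and 8.17 in CD11b cells. In KO the DP values were 11.47, 11.60 and 10.79, against 11.98, 11.95 and 11.39 in CD27 and 8.88, 9.44 and 8.66 in CD11b. DP was close to CD27 and overlapped it in KO. The difference was 0.99 (1.99-fold, 1.61 to 2.46, adjusted p = 0.0177), with DP 2.58 above CD11b (adjusted p = 1.28e-06) and 0.59 below CD27 (adjusted p = 0.132). The call was lost without DP WT replicate 1 (0.0854), DP WT replicate 2 (0.0811), DP KO replicate 1 (0.101) or DP KO replicate 2 (0.0756).

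Carmil2, a regulator of actin filament capping with a known role in T cell costimulation, fell at both changes but mainly at the second. It read 9.32, 9.39 and 9.52 on the WT CD27 arrays, 8.71, 8.85 and 8.91 on the DP arrays, and 7.24, 7.30 and 7.13 on the CD11b arrays. In KO it read 9.24, 8.99 and 9.21, then 8.92, 8.81 and 8.64, then 7.25, 7.28 and 7.11. The 3 subsets did not overlap in either genotype. DP lay 0.47 under CD27 (adjusted p = 0.00244) and 1.59 over CD11b (adjusted p = 9.71e-09), 0.56 ± 0.06 above the midpoint (1.47-fold, 1.36 to 1.6, adjusted p = 0.00106). Carmil2 passed in KO alone (0.61, adjusted p = 0.0298) and had 0.51 in WT (adjusted p = 0.0566). The transcript 6030458C11Rik stood level in CD27 and DP and then fell (difference 0.40, adjusted p = 0.0351), and 1 probe set with no symbol differed by 0.36 (adjusted p = 0.0429). With 1 array left out, the former lost its call in 10 of 18 fits, up to 0.133 without DP KO replicate 2, and the latter in 14, up to 0.162 without DP WT replicate 1.

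Itgam and Cd27 encode the proteins of the gates, so their shape follows the sort. Itgam means ran 10.14, 12.37 and 12.60 in WT and 9.50, 11.80 and 12.16 in KO, with DP 0.98 above the midpoint (1.98-fold, 1.56 to 2.51, adjusted p = 0.0429). It lost the call in 14 of 18 fits with 1 array left out, up to 0.143 without DP KO replicate 2, and without KO replicate 3 (0.0853). Cd27 means ran 11.80, 11.60 and 9.87 in WT and 11.63, 11.52 and 9.48 in KO, a difference of 0.87 that did not pass (adjusted p = 0.134). Without KO replicate 3 it passed as a step at 0.86 (adjusted p = 0.00614). Both gate genes thus stood near their high level in DP cells.

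**Figure D3:**
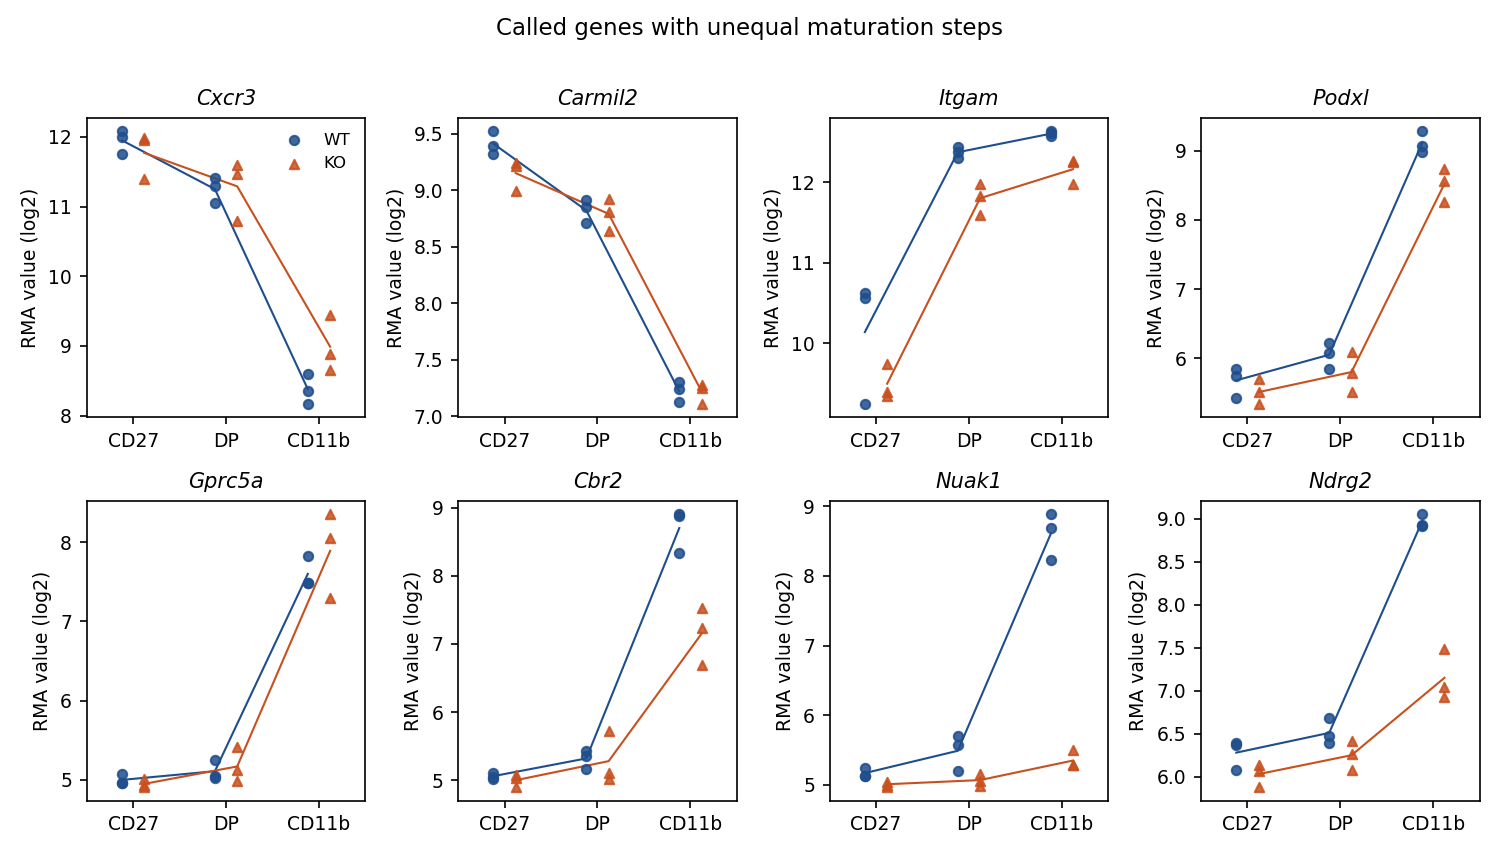
Deposited log2 values of each array (points and triangles) and group means (lines) for 8 called genes that were neither peak nor dip, with WT in blue and KO in orange. Cxcr3 and Carmil2 fall mainly from DP to CD11b, Itgam rises from CD27 to DP, and Podxl, Gprc5a, Cbr2, Nuak1 and Ndrg2 rise at the last change, Nuak1 from 5.07 to 5.35 in KO.

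Tested within one genotype, 9 probe sets passed in WT (0.0254%), 1 with DP higher (0.00282%) and 8 lower (0.0226%). In KO 4 passed (0.0113%), 1 with DP higher (0.00282%) and 3 lower (0.00847%). Both genotypes called 2, with the same sign, and 8 of the 9 and 3 of the 4 were also averaged calls. With 1 array left out, the WT count was 3 (DP WT replicate 3), 4 (CD27 WT replicate 2, DP KO replicate 2 or CD11b WT replicate 1), 5 (CD27 KO replicate 2, CD27 KO replicate 3 or DP WT replicate 2) or 20 (CD27 WT replicate 3), and otherwise 6 to 11. The KO count was 19 with CD11b KO replicate 2 left out and 0 to 5 with any other, 0 in 7 of these fits (CD27 KO replicates 1 and 3, DP KO replicates 1 and 2, CD11b WT replicates 1 and 3, and CD11b KO replicate 3). The KO minus WT difference was called for 0 probe sets by limma after Benjamini-Hochberg adjustment, and 804 (2.27%) had an unadjusted p under 0.05. A genotype difference in the position of DP thus passed for no single gene in the main fit with this number of arrays.

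The position of DP on the way from CD27 to CD11b was described for probe sets called between those 2 subsets that also changed by at least 0.5 log2 in the genotype shown. This description was chosen after values were seen. For those higher in CD11b, the median position was 43.6% of the way in WT (quartiles 25.9% and 58.9%, 706 probe sets) and 38.6% in KO (21.2% and 52.2%, 492). For those lower in CD11b it was 52.5% in WT (32.9% and 72.5%, 650) and 40.3% in KO (20% and 76.4%, 511), and 30.4% in KO without replicate 3 (480). Probe sets with DP under 25% of the way made up 22.5% in WT and 30.5% in KO of those higher in CD11b. They include late steps such as that of Podxl. They also include 25 probe sets in WT and 24 in KO with DP outside the range on the CD27 side. DP lay outside its neighbours' range for 5.52% in WT and 6.71% in KO of those higher in CD11b, and for 9.85% and 21.7% of those lower. The genotypes' positions were not tested against each other.

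**Figure D4:**
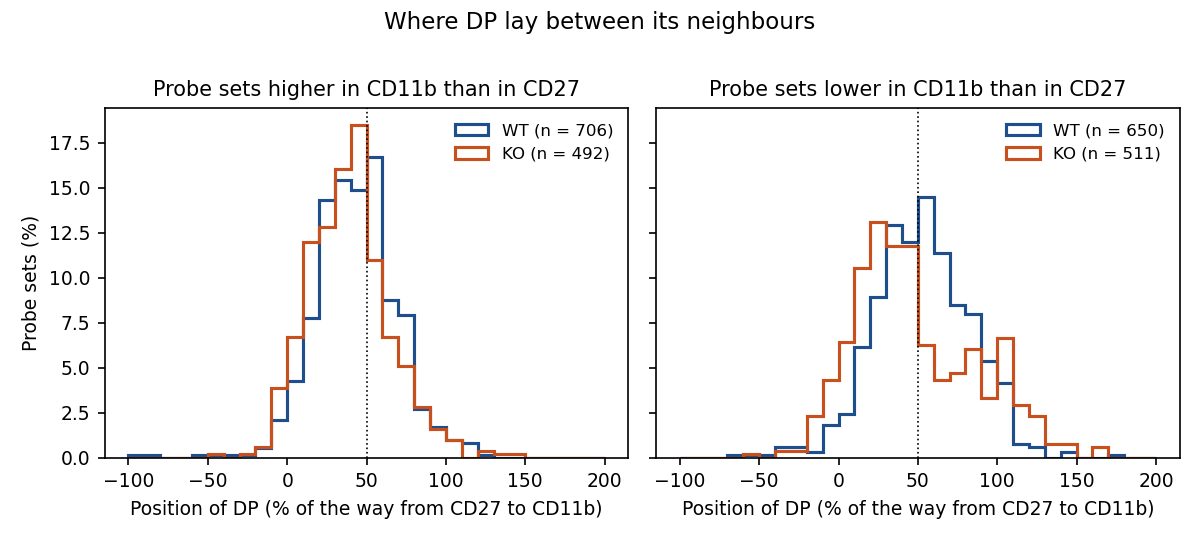
Histograms of the position of DP on the way from CD27 to CD11b, as a share of probe sets, for those higher (left) and lower (right) in CD11b, with WT in blue and KO in orange and values beyond the axis drawn in the end bins. The bulk lies between the neighbours, with medians of 43.6% and 38.6% on the left and 52.5% and 40.3% on the right.

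The medians of the known NK programmes lay near the midpoint, while members went both ways. Over 21 lists of NK, signalling, metabolic and cell cycle genes, the medians of the averaged difference ran from -0.06 to 0.11. The median over all 19938 genes was 0.01. Over all 31 lists 3 genes of 601 measured were called (0.499%), against 16 of all 19938 genes (0.0802%). They were Tigit, Cxcr3 and Itgam, and Itgam is a gate gene whose shape follows the sort. Without KO replicate 3, 6 list genes were called, and 32 of all 19938 genes. The share of genes at an unadjusted p under 0.05, against which the counts of list members below stand, was 1147 of 19938 (5.75%), or 2179 of all 35399 probe sets (6.16%). Of 21 immature NK genes, 1 was called (Cxcr3), 12 lay above the midpoint in both genotypes (57.1%, against 6390 of all 19938 genes, 32%), 8 had an unadjusted p under 0.05 and the median was 0.09, with a KO median of 0.13 that was 0.25 without replicate 3. Their mean over CD27, DP and CD11b arrays ran 11.02, 10.20 and 9.18 in WT and 10.77, 10.28 and 9.36 in KO. Of 25 mature NK genes, 1 was called (Itgam), 16 lay above in both genotypes, 6 had an unadjusted p under 0.05 and the median was 0.11, and their mean ran 10.90, 11.69 and 11.96 in WT and 11.34, 11.75 and 11.92 in KO. The maturation factors Tbx21 (-0.09, adjusted p = 0.935) and Eomes (0.11, adjusted p = 0.807) and Runx3 (-0.19, adjusted p = 0.612) did not pass.

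Among receptors, the checkpoint and inhibitory list had Tigit as its 1 call of 19 genes, with a median of -0.06. Cd226, the activating receptor that shares ligands with TIGIT, did not pass (-0.48, adjusted p = 0.0833). Its means ran 11.30, 9.51 and 9.14 in WT and 11.59, 10.83 and 10.56 in KO, a fall of 1.27 from CD27 to DP (adjusted p = 7.1e-05) beside the value of 0.27 for Tigit over the same change. Of the 23 activating receptors, adaptors and proximal kinases 0 were called, with 5 at an unadjusted p under 0.05, including Sh2d1b1, the adaptor EAT-2 (0.36, adjusted p = 0.204). Without KO replicate 3, Sh2d1b1 was called as a peak (0.34, adjusted p = 0.0498), the 1 call of that list. Among cytotoxic granule genes Gzmk, a granzyme, had the smallest p. Its means were 12.04, 12.87 and 12.62 in WT and 12.52, 12.81 and 12.50 in KO, highest in DP in each genotype, and the difference of 0.42 did not pass (adjusted p = 0.0833). Of 21 cytokine and chemokine genes 7 had an unadjusted p under 0.05 and 0 were called by limma's test. Of these, Il2 (-0.34, adjusted p = 0.157) and Tnf (-0.64, adjusted p = 0.31) fell from CD27 to DP (adjusted p = 0.000879 and 0.00135) and did not pass against the midpoint.

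Chemokine and egress receptors had Cxcr3 as the 1 call of 16 genes, with a median of -0.04 and 6 members at an unadjusted p under 0.05. Integrins had the gate gene Itgam as the 1 call of 27, with a median of 0.02. Cytokine receptors had 0 calls of 23, with 5 at an unadjusted p under 0.05, among them Il18r1, a chain of the IL-18 receptor (0.38, adjusted p = 0.196). Of the 29 transcription factors of NK maturation 0 were called, with 4 at an unadjusted p under 0.05, among them Zeb1 (0.35, adjusted p = 0.23) and Ikzf2, the factor Helios (-0.43, adjusted p = 0.417). Glycolysis genes had a median of 0.00 and cholesterol and fatty acid synthesis genes -0.01, with 3 of 20 and 2 of 24 at an unadjusted p under 0.05 and 0 called by limma's test.

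The mitosis list had a median of 0.09, at -0.04 in WT and 0.22 in KO. Without KO replicate 3, the arrays with the highest mitosis level given above, its averaged median was 0.03 and its KO median 0.09. The S phase list had a median of 0.02 and the interferon response list 0.07. By limma's test 0 members of these 3 lists were called, and the number at an unadjusted p under 0.05 was 0 of 38, 0 of 37 and 2 of 26.

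Of the 10 lists of other cell types, 5 had a median under -0.1, those of neutrophils, dendritic cells, T cells, plasma cells (-0.13, 8 genes, -0.04 in KO without replicate 3) and ILC1-like cells. The T cell list had a median of -0.17, and -0.10 without KO replicate 3 (16 genes, 0 called, 6 at an unadjusted p under 0.05), and 10 of 16 lay below the midpoint in both genotypes. Its mean level was 7.81 to 8.21 in WT CD27 arrays, 6.92 to 7.09 in DP and 6.36 to 6.46 in CD11b, and 7.42 to 7.70, 6.90 to 7.02 and 6.48 to 6.87 in KO. Cd3e, a T cell receptor complex chain, averaged 9.91 ± 1.56 (SD, n = 3) in WT CD27 cells, 5.95 ± 0.33 in DP and 5.48 ± 0.10 in CD11b, and its difference of -1.23 did not pass (adjusted p = 0.364). Cd28, with the smallest p of the list, went the other way and did not pass either (0.40, adjusted p = 0.14). In all, 5 of the 16 lay above the midpoint in both genotypes. The ILC1-like list had a median of -0.12, and in KO one of -0.10 that was -0.03 without replicate 3 (19 genes, 0 called, 7 at an unadjusted p under 0.05), 13 of 19 lay below in both genotypes, and its mean level was 9.40 to 9.75, 8.16 to 8.32 and 7.35 to 7.54 in WT and 9.23 to 9.33, 8.30 to 8.55 and 7.64 to 8.01 in KO. Tmem176a (-0.90, adjusted p = 0.0833) and Tmem176b (-0.95, adjusted p = 0.23), transmembrane genes of ILCs and myeloid cells, fell early without passing against the midpoint. These list levels are highest in CD27 cells, as are the dips St6galnac3 and Tnfaip8, and their part in those dips was not tested. In sorted bulk samples, fewer cells of a type and less RNA per cell cannot be told apart.

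The neutrophil median was -0.39, at 0.02 in WT and -0.75 in KO, and it was 0.00 without KO replicate 3. The dendritic and MHC class II median was -0.24, at -0.33 in KO, and -0.01 without KO replicate 3, whose CD11b array averaged 8.75 on that list, against 6.03 to 6.44 in the other KO CD11b arrays. By limma's test 0 members of either list were called, with 1 of 17 and 2 of 15 at an unadjusted p under 0.05. Without KO replicate 3 each list had 1 call, both peaks: the neutrophil gene Ly6g (0.90, adjusted p = 0.0498) and Itgax, the integrin chain CD11c (0.74, adjusted p = 0.0237), which NK cells also express.

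**Figure D5:**
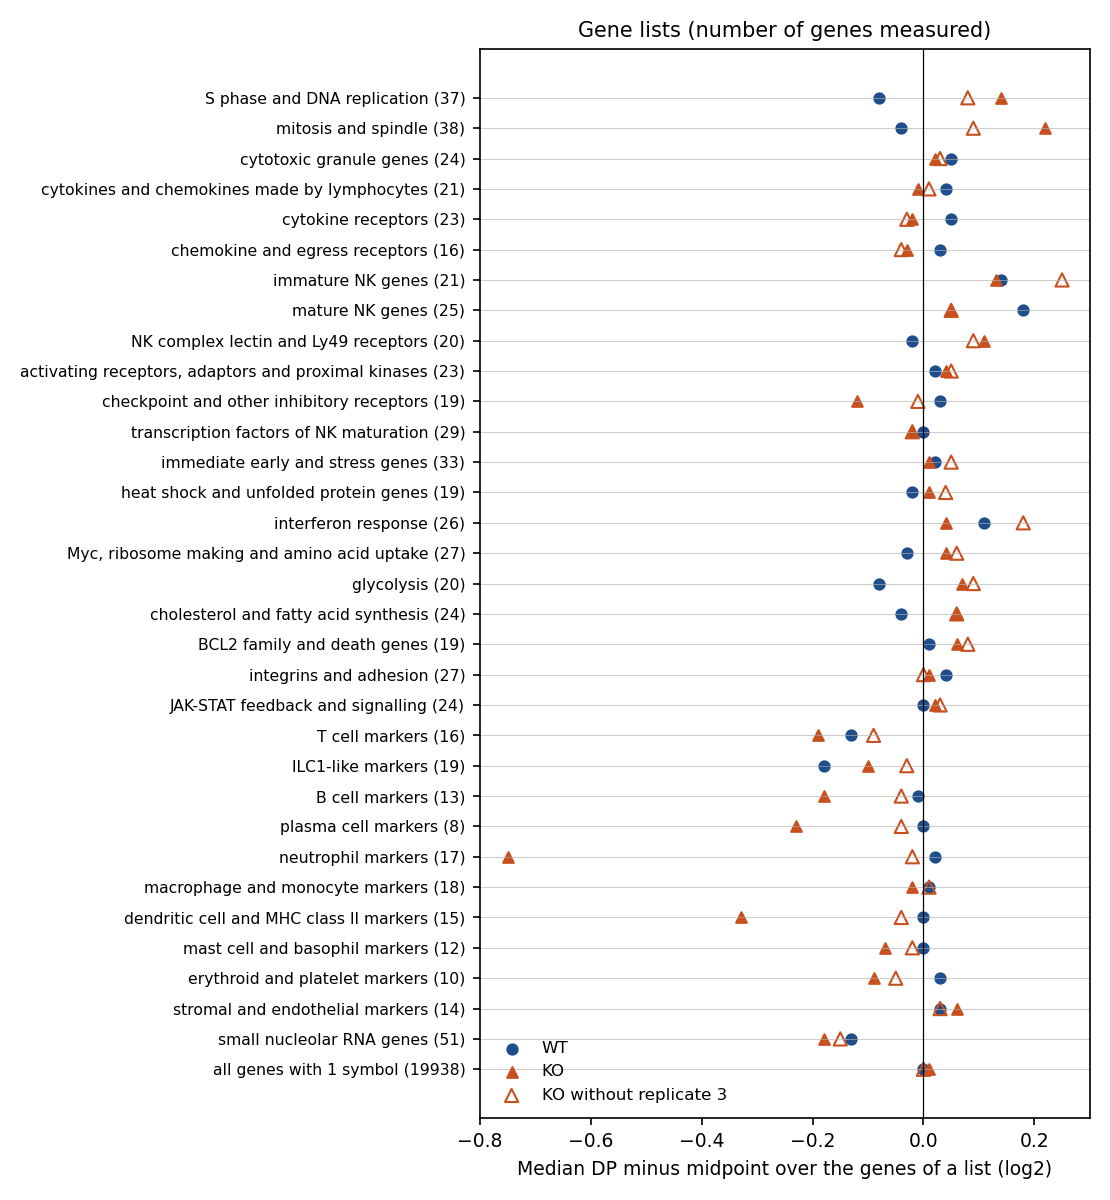
Median DP minus midpoint difference (log2) over the measured genes of each list in WT (blue points), KO (orange triangles) and KO without replicate 3 (open triangles). Programme lists lie near 0, and the neutrophil list lies at -0.75 in KO with all arrays and at -0.02 in KO without replicate 3.

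The genes just outside the threshold, named after their values were seen, had the same shapes. The largest adjusted p of a call was 0.0429 and the next value was 0.051, that of Cd55b, a complement regulator gene, which lay 0.48 above the midpoint with means of 6.34, 6.67 and 5.74 in WT and 6.44, 6.45 and 5.80 in KO. Kcnc1, a voltage-gated potassium channel gene, lay 0.69 above (adjusted p = 0.0538), with means of 7.88, 8.19 and 7.04 in WT and 5.85, 6.19 and 5.22 in KO. Plcg1, a phospholipase C, lay 0.68 below (adjusted p = 0.0524), with means of 6.05, 5.42 and 6.62 in WT and 5.87, 5.62 and 6.26 in KO. Fam124b lay 0.75 below (adjusted p = 0.0524), falling from 7.20 to 5.42 in WT and from 6.83 to 5.69 in KO at the first change. DP was the highest of the 3 means for Cd55b and Kcnc1 and the lowest for Plcg1 in each genotype.

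Over all 18 arrays, the gene most like Tigit by Pearson's r was Lypla1 (0.932), followed by Gpr65 (0.915) and Lrrn4 (0.906). St6galnac3 was most like Fam124b (0.912), Usp44 (0.89) and Ikzf2 (0.883). Prss16 was most like Krt18 (0.821), Tmsb15a most like Cbll1 (0.883) and Snap47 most like Heyl (0.893). The arrays share subset and genotype, so these values describe likeness over 6 groups and carry no test.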

How the data were processed

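The deposited table holds log2 values made by the authors with RMA. Partek is the other tool named, per the submitters' processing notes, and no versions are given there. The array annotation used here gives 1 symbol for 21789 probe sets, several for 1621 and none for 11989. The latter 2 kinds were tested and not named. Biotin-labelled cDNA was made from total RNA with an Affymetrix kit, per the labels' protocols. RMA forces the arrays to 1 distribution and can mask global shifts.

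With limma 3.58.1 in R 4.3.3, 1 mean per group was fitted to the 18 arrays, with no filter (12 residual and 2.18 prior degrees of freedom). Contrasts were DP minus the midpoint averaged over genotypes, in WT, in KO, and KO minus WT. DP was also set against each neighbour. P-values are two-sided and Benjamini-Hochberg adjusted over 35399 probe sets, and intervals are 95%. The procedure was tested on simulated data. Precision is limited by 3 arrays per group, and p-values measure the spread between these samples, which may be technical.

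Named were 6 fixed genes (Runx3, Tbx21, Eomes, Cd27, Itgam, Ncr1), the called genes with 1 symbol, and, from the lists, called members or those with the smallest p. Each listed gene was represented by its brightest probe set. Contrast, members and lists were chosen with earlier results of these data known. No sequences are printed, since the data bear on none.

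Alternatives were cyclic loess normalization, a filter on dim probe sets, a robust prior with an intensity trend, for which statmod 1.5.0 was used, array weights, 1 probe set per gene, a 1.5-fold minimum, arrays that do not overlap, replicate number as a block, and leaving out arrays.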

Additional observations from a re-analysis of the deposited data

How the results depend on the processing

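Cyclic loess, the dim filter, the intensity trend and 1 probe set per gene left the averaged count within 1.5 times of 20. Of 25 named genes followed, 24 kept their sign; Ncr1, not called, ran from -0.01 to 0.04. The labels do not state that same-numbered arrays were paired. Within a genotype, 17 of 18 same-numbered pairs had correlated deviations over 0.1, and WT CD27 with DP number 3 had -0.0094. The highest r of a same-numbered pair was 0.64, and the median r between arrays of unlike numbers was -0.18. Same-numbered arrays thus tended to deviate alike, which the main fit does not take into account. With replicate number as a fixed block, calls were 224 (152 higher, 92 peaks, 34 dips, 126 peaks and dips), 38 in WT and 11 in KO. Against both neighbours that fit called 2 genes by limma's test, Dock9 and Chil5. DP exceeded CD27 by 0.57 and CD11b by 0.73 for Dock9 (adjusted p = 0.0105). For Chil5 it did so by 1.26 and 1.57 (adjusted p = 0.00596). With replicate number as a random block, calls were 75 (34 higher, 25 peaks, 22 dips, 47 together), 24 in WT and 2 for KO minus WT. All 20 calls held under both blocks. Array weights gave 57 calls (24 higher, 16 peaks, 18 dips, 34 together). Without KO replicate 3, 36 were called (21 higher, 10 peaks, 16 peaks and dips), 16 in WT and 1 in KO. A 1.5-fold minimum left 4 peaks and dips, arrays without overlap left 2, and 1 probe set per gene gave 7 peaks. With 1 array left out, calls ranged from 10 to 50, higher from 2 to 18, peaks and dips from 4 to 25, peaks from 1 to 11, dips from 2 to 14, WT from 3 to 20, KO from 0 to 19, and KO minus WT from 0 to 1. A group left with 2 arrays took its spread from the pooled fit. The cause of these shifts was not tested. Single genes were not rerun under the filter or 1 probe set per gene. Signal near the low end of the range limits Prss16 and the low states of Podxl, Gprc5a, Cbr2 and Nuak1. It also limits the WT DP and CD11b values of St6galnac3.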
